A study of Mus musculus with 2 samples.

Results

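Peaks of the transcription factor Olig2 were examined at genes for splicing factors and RNA helicases in the adult mouse spinal cord. A peak belonged to this group when its nearest gene, as annotated in the deposited list, was protein-coding and its name started with Srsf, Hnrnp, Sf3, Prpf or Snrp, or with Rbm, Ddx or Dhx followed by a digit. This rule took 40 peaks at 38 genes, of 4215 peaks in all and of 3736 peaks whose nearest gene was protein-coding. The RefSeq annotation of GRCm38.p6 holds 157 protein-coding genes with such names, and a gene is called Olig2-bound here if 1 peak or more had it as its nearest gene. The rule used names and no measured value, and a name does not make a splicing factor of every member, since several Rbm, Ddx and Dhx proteins act mainly on ribosomal RNA.

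The Olig2 ChIP used an antibody against Olig2 and whole spinal cord. The mice were C57BL/6 males, 6 weeks old, and sheared chromatin of the same tissue served as the Input Control. No mutation or treatment was involved. Olig2 is a basic helix-loop-helix factor of oligodendrocyte precursors (OPCs) and oligodendrocytes (OLs), and whole cord holds many other cell types, so the cells in which a site was occupied are not given by these data. Peaks were called once on pooled experiments, so no value has a replicate. Shares carry exact 95% intervals that treat genes or peaks as draws and cover counting error only.

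Splicing removes introns from pre-mRNA in the spliceosome, which assembles anew on each intron from small nuclear ribonucleoproteins (snRNPs) and many further proteins. SR proteins (Srsf) bind exons and mostly promote the use of nearby splice sites, whereas hnRNP proteins coat nascent transcripts and often oppose them. Most Ddx and Dhx proteins are ATP-dependent helicases of the DEAD-box and DEAH-box families, which remodel RNA and RNA-protein complexes in splicing, ribosome assembly, export and translation. As background, the DNA motif bound by basic helix-loop-helix factors is the E-box, CANNTG.

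The sequence under the highest promoter peak of each family is printed first, because these sites carry the contrast in motif content described further on. Each is the 51 bp of the deposited peak on GRCm38 (the last 30 for Hnrnpf), read 5′ to 3′ on the strand of the gene, with the words that the deposited motif search had hit in capitals. The 7 peaks had scores between 13.1 and 37.2 and lay upstream of the transcription start site (TSS). They are Srsf7 (chr17:80207375-80207425, minus strand), Hnrnpf (chr6:117906762-117906791, plus strand), Sf3b6 (chr12:4817494-4817544, plus strand), Prpf38b (chr3:108911738-108911788, minus strand), Rbm14 (chr19:4811664-4811714, minus strand), Ddx54 (chr5:120612931-120612981, plus strand) and Dhx35 (chr2:158794635-158794685, plus strand).
Srsf7: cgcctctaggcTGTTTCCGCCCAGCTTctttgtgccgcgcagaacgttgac
Hnrnpf: ctgagGCTCCGCCCCatcaCCGTCTTGcat
Sf3b6: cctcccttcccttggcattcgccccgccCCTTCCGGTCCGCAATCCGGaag
Prpf38b: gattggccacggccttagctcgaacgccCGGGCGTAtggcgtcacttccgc
Rbm14: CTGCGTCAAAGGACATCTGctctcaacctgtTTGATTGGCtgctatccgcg
Ddx54: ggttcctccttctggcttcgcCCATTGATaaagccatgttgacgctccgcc
Dhx35: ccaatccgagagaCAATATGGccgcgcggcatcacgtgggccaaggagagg
None of the 7 peaks holds CAGCTG, the E-box with a GC core. Any CANNTG is present in 2 of them, as CATCTG in capitals in Rbm14 and as cacgtg in lower case in Dhx35.

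For contrast, 3 peaks away from a promoter are printed in the same way, chosen after their values were seen because each holds CAGCTG. They lie 3738 bp upstream of Sf3b6 (chr12:4813845-4813895, plus strand), 5836 bp upstream of Sf3a3 (chr4:124709000-124709050, plus strand) and in intron 25 of 26 of Dhx37 (chr5:125415396-125415446, minus strand).
Sf3b6, upstream: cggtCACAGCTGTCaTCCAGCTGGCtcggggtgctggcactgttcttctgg
Sf3a3, upstream: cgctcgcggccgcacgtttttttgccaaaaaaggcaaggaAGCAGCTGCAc
Dhx37, intron: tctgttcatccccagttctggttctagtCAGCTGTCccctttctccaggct
The site upstream of Sf3b6 has 2 copies of CAGCTG within its capitals, and the other two sites have 1 copy each.

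Of the 157 genes with these names, 38 were Olig2-bound, which is 24.2% (95% interval 17.7 to 31.7%), against 14.1% of all 21900 protein-coding genes. A peak within 1 kb of the TSS was found at 29 of the 157 genes, or 18.5% (12.7 to 25.4%), against 7.32% of all protein-coding genes. Both shares of all genes lay below the intervals of the families. No test was made of these shares, and the all-gene values include the families themselves. The families were chosen with earlier results of these data known. Peak positions hold no expression levels, so the background could not be limited to genes active in the cord. The shares were also taken by score and position, but whether the gap changes with either was not tested. With a peak score of at least 10, 16.6% of the family genes were bound against 8.89% of all protein-coding genes, but with a score of at least 20 the shares were 4.46% (1.81 to 8.97%) and 3.84%. Within 1 kb of the TSS, a score of at least 20 left 3.18% (1.04 to 7.28%) of the family genes against 1.43%. Peaks farther than 10 kb from the TSS were found at 4.46% of the family genes and 5.53% of all protein-coding genes.

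**Figure D1:**
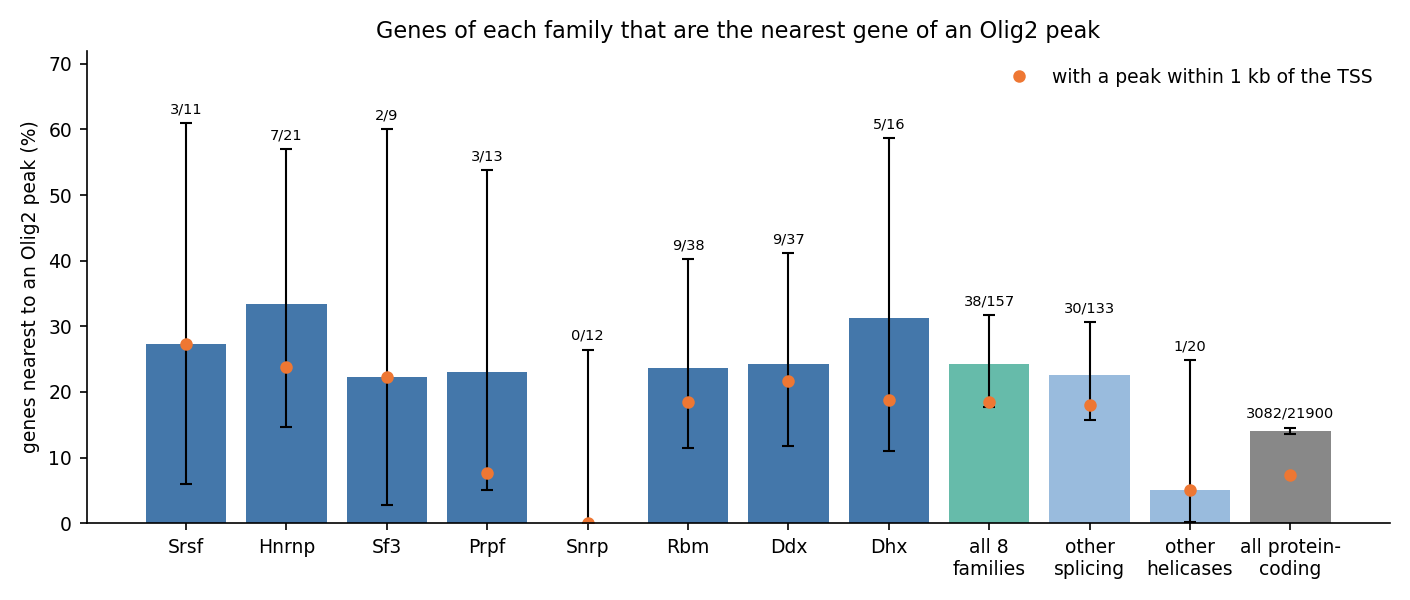
Share of annotated protein-coding genes with 1 or more Olig2 peaks nearest to them (vertical axis, %), by family, for all 8 families, for splicing genes and helicases outside the name rule, and for all protein-coding genes. Bars are shares with exact 95% intervals, labels give bound over annotated genes, and orange points are the shares with a peak within 1 kb of the TSS. The Snrp family has 0 of 12 genes bound, the other families lie between 22.2% and 33.3%, and all protein-coding genes lie at 14.1%.

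Of the 8 families, 7 had bound genes, with shares between 22.2% and 33.3%. Hnrnp genes were bound at 7 of 21 (33.3%, 14.6 to 57.0%), Dhx at 5 of 16 (31.3%), Srsf at 3 of 11 (27.3%), Ddx at 9 of 37 (24.3%), Rbm at 9 of 38 (23.7%), Prpf at 3 of 13 (23.1%) and Sf3 at 2 of 9 (22.2%). Snrp was the exception, with 0 of 12 (interval up to 26.5%). The share over all protein-coding genes, 14.1%, lay just below the Hnrnp interval and inside the intervals of every other family. These were 11.0 to 58.7% for Dhx, 6.02 to 61.0% for Srsf, 11.8 to 41.2% for Ddx and 11.4 to 40.2% for Rbm. For Prpf the interval was 5.04 to 53.8% and for Sf3 2.81 to 60.0%. All 8 intervals overlapped one another, so no order of the families can be read at these numbers. Helicases as a whole (Ddx and Dhx, 14 of 53, 26.4%) and the other 6 families (24 of 104, 23.1%) also overlapped.

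Among SR proteins, Srsf7, Srsf3 and Srsf1 were bound, and each peak was within 1 kb of the TSS. Srsf7, a shuttling SR protein, had a score of 13.1 at 95 bp upstream. Srsf3, the smallest classical SR protein, scored 6.73 at 73 bp upstream. Srsf1, the founding member of the family, had one of the lowest peaks of the whole list, with a score of 2.76 (rank 4209 of 4215) at 245 bp downstream, in the 5′ UTR of exon 1 of 3. The 8 unbound members were Srsf2, Srsf4, Srsf5, Srsf6, Srsf9, Srsf10, Srsf11 and Srsf12.

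The bound hnRNP genes spanned nearly the whole range of scores seen in the families. Hnrnpf, which binds G-rich sequence in RNA, had the highest promoter peak of all members, with a score of 37.2 (rank 328) at 16 bp upstream of a TSS that lies inside the annotated gene (chr6:117900340-117925622). Hnrnpa1 and Hnrnpa2b1, abundant repressors of exon inclusion, scored 16.6 and 9.83 at 7 and 76 bp upstream. Hnrnpa0, of the same subfamily, scored 11.2 at 449 bp upstream, and Hnrnpul2 scored 7.67 at 88 bp downstream. The other two peaks were far from their genes. The peak of Hnrnpd, which binds AU-rich elements of mRNA, scored 14.8 at 72695 bp downstream, where the annotation used here has the body of Vamp9. The peak of Hnrnpu, a nuclear scaffold protein, lay 31270 bp upstream and had the lowest score of all members, 2.38 (rank 4210). The other 14 Hnrnp genes were not bound.

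Among core factors, Sf3b6 and Sf3a3 were the genes with 2 peaks each, 1 at the promoter and 1 upstream of it. SF3A and SF3B are the parts of the U2 snRNP that recognise the branch point, and the protein of Sf3b6 contacts the branch point region directly. Sf3b6 scored 29.2 (rank 513) at 89 bp upstream and 15.4 (rank 1540) at 3738 bp upstream. At Sf3a3 the order was the opposite, with 6.61 (rank 3516) at 73 bp upstream and 18.7 (rank 1131) at 5836 bp upstream, at the annotated end of a neighbouring transcript. Sf3a1, Sf3a2, Sf3b1, Sf3b2, Sf3b3, Sf3b4 and Sf3b5 were not bound.

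In the Prpf family, Prpf19, the ubiquitin ligase of the complex that activates the spliceosome, had the highest score of all members, 37.3 (rank 312). Its peak was not at the promoter but 6749 bp downstream of the TSS, in the 3′ UTR of exon 16 of 16 (chr19:10905369-10905419). Prpf4b, a kinase of the spliceosome, scored 13.6 at 60859 bp upstream. Prpf38b scored 13.5 at 59 bp upstream and was the one Prpf gene with a promoter peak. The other 10 Prpf genes were not bound. Nor were any of the Snrp genes, which encode Sm proteins and other proteins of the snRNPs: Snrpa, Snrpa1, Snrpb, Snrpb2, Snrpc, Snrpd1, Snrpd2, Snrpd3, Snrpe, Snrpf, Snrpg and Snrpn.

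The 9 bound Rbm genes hold an RNA recognition motif and differ widely in role. Rbm15, of the m6A methyltransferase complex, had the highest score, 30.8 (rank 474), at an intergenic LTR repeat 15891 bp upstream. Rbm14, a coactivator and paraspeckle protein, scored 26.5 (rank 627) at 55 bp upstream. Rbm5 and its neighbour Rbm6, regulators of alternative splicing, scored 13.7 and 11.7 at 45 and 55 bp upstream. Rbm42 and Rbm39, the second a relative of the U2AF splicing factor, scored 12.3 and 12.1 at 82 and 203 bp upstream. Rbm19, which acts in ribosomal RNA processing, scored 12.9 at 8952 bp downstream, in an exon of a non-coding transcript inside the gene. Rbm12b2 scored 4.67 at 21 bp upstream, and Rbm25, a factor that works with the U1 snRNP, scored 3.02 (rank 4180) at 184 bp upstream. The other 29 Rbm genes were not bound.

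The 14 bound helicases include 4 known from splicing. Ddx23, the helicase of the U5 snRNP, and Ddx39b, which acts in early spliceosome assembly and mRNA export, scored 3.69 and 6.65 at 100 and 48 bp upstream. Dhx35, found in catalytic spliceosomes, scored 28.6 (rank 534) at 147 bp upstream, and Ddx41, also linked to splicing, scored 13.5 at 29 bp downstream. Ddx54, Ddx50, Ddx10, Ddx18 and Dhx37 are helicases of the nucleolus or of ribosome assembly. Ddx54 scored 27.6 (rank 578) at 174 bp upstream and Ddx50 scored 18.6 at 129 bp upstream. Ddx10 and Ddx18 scored 12.5 and 4.24 at 34 and 63 bp upstream, and Dhx37 scored 11.3 at 18627 bp downstream in its intron. Dhx36, which unwinds G-quadruplexes, scored 11.4 at 85 bp upstream. Dhx33 and Ddx59 scored 8.59 and 9.11 at 150 and 24 bp upstream. Ddx25, known from the testis, and Dhx40 scored 12.4 and 12.9, but their peaks lay 50047 bp downstream and 90871 bp upstream, outside the genes. Among Dhx genes Dhx8, Dhx9, Dhx15, Dhx16, Dhx29, Dhx30, Dhx32, Dhx34, Dhx38, Dhx57 and Dhx58 were not bound, and among Ddx genes 28 were not.

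Peaks of the families were mostly promoter peaks. Within 1 kb of the TSS lay 29 of the 40 member peaks, or 72.5% (56.1 to 85.4%), against 43.9% of the 3736 protein-coding peaks. By the deposited annotation, 70.0% of member peaks were at promoters, against 40.2% of protein-coding peaks, and 2 member peaks (5.00%) were in introns, against 31.6%. The 11 peaks farther away were spread over the families, with 2 each of Hnrnp, Sf3, Prpf, Rbm and Dhx and 1 of Ddx. The nearest gene is an assignment by distance, and it rests on 50047 bp or more for Hnrnpd, Prpf4b, Dhx40 and Ddx25.

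The promoter peaks sat in a narrow band just upstream of the TSS. Of the 29, 26 lay upstream (89.7%, 72.6 to 97.8%), against 75.7% of the protein-coding promoter peaks, whose share falls within that interval. Srsf1, Hnrnpul2 and Ddx41 were the 3 downstream. Within 100 bp of the TSS were 72.4% of the member promoter peaks (52.8 to 87.3%) against 55.2%, and within 250 bp were 96.6% (82.2 to 99.9%) against 81.6%. The median distance was 76 bp against 87 bp. Hnrnpa0 was the single promoter peak beyond 250 bp.

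**Figure D2:**
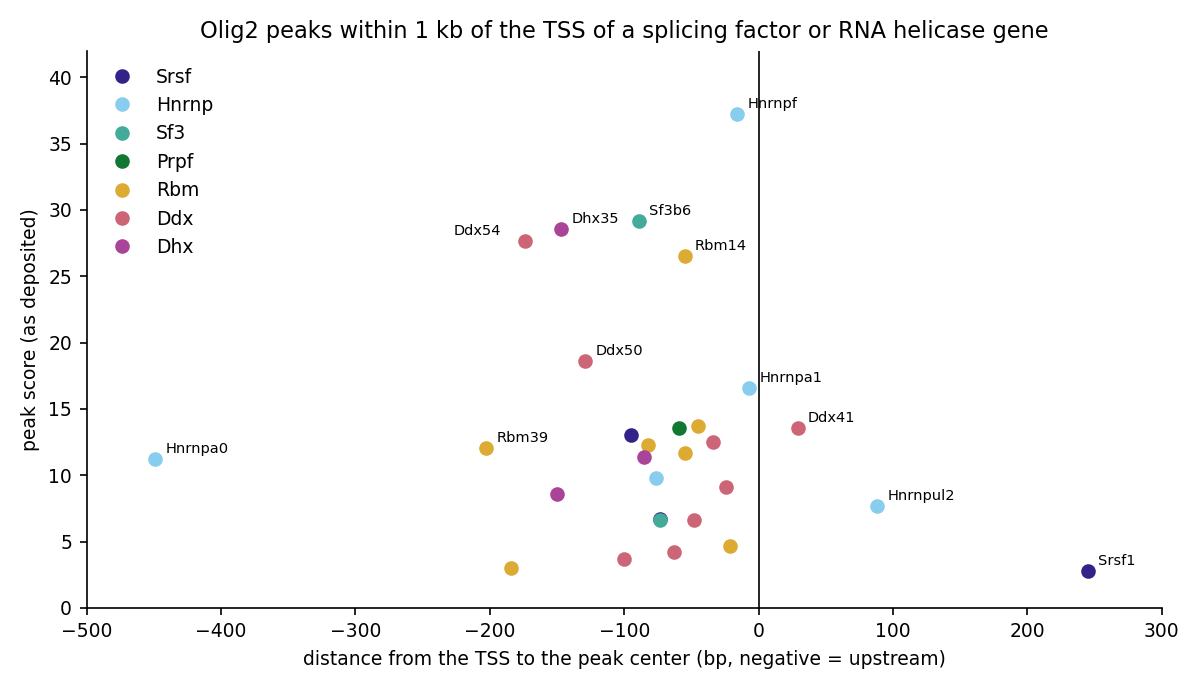
Position and score of the 29 Olig2 peaks within 1 kb of the TSS of a splicing factor or RNA helicase gene, with the signed distance from the TSS on the horizontal axis (bp, negative upstream) and the deposited peak score on the vertical axis. Colors mark the families, and peaks that are high, downstream of the TSS or far from it are named. The points of Srsf3 and Sf3a3 overlap. A total of 26 peaks lie upstream, and 28 lie within 250 bp.

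Scores of the families did not stand apart. The median score was 12.4 for the 40 member peaks (11.2 to 13.6, exact interval of the median), against 11.6 for all protein-coding peaks. The range was 2.38 to 37.3 for members and 2.06 to 195 for all. None of the members was among the 100 highest peaks of the list, 3 were among the 500 highest and 7 among the 1000 highest. Members are only 40 of the 4215 peaks, so counts this small do not set them apart. A score of at least 20 was reached by 17.5% of member peaks and 24.4% of protein-coding peaks. The family medians were 17.1 for Sf3 (4 peaks), 13.6 for Prpf (3), 12.4 for Ddx (9), 12.3 for Rbm (9), 11.4 for Dhx (5), 11.2 for Hnrnp (7) and 6.73 for Srsf (3). Every family with peaks but Srsf had at least 1 peak above 20, and scores within these families ranged more widely than the medians between families.

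**Figure D3:**
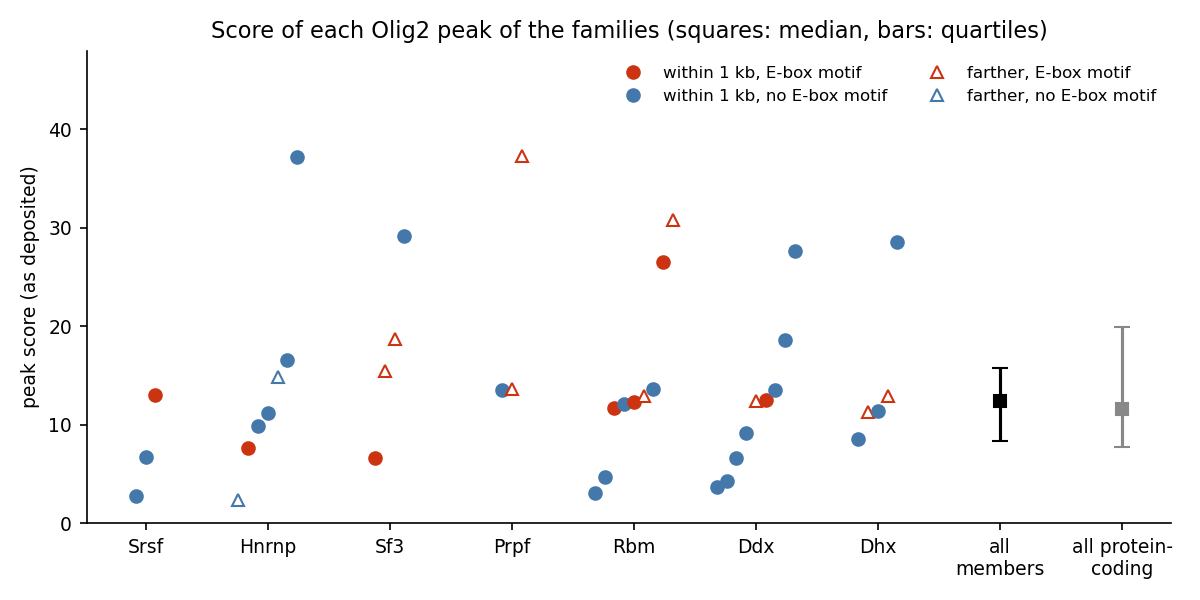
Deposited peak score (vertical axis) of each of the 40 Olig2 peaks, by family. Filled circles are peaks within 1 kb of the TSS and open triangles are peaks farther away, red with and blue without the deposited E-box motif, and the squares with bars at the right give the median and quartiles of all member peaks and of all protein-coding peaks. The medians are 12.4 and 11.6, and red symbols make up most of the triangles and few of the circles.

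Motif content was compared by position, since it differs between promoter peaks and others. The deposited motif search gives hits of 20 motifs, of which the one with the most frequent word AGCAGCTG is called the E-box motif here. It was hit in 16 of 40 member peaks (40.0%, 24.9 to 56.7%), against 58.2% of protein-coding peaks. Split by position, it was hit in 7 of the 29 promoter peaks (24.1%, 10.3 to 43.5%) against 33.6%, and in 9 of the 11 peaks farther away (81.8%, 48.2 to 97.7%) against 77.5%. So within each class of position the share of all protein-coding peaks fell inside the interval of the members.

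The 7 promoter peaks with the E-box motif were those of Srsf7, Ddx10, Rbm42, Rbm6, Rbm14, Hnrnpul2 and Sf3a3. In 6 of them the hit words hold no CANNTG, as in Srsf7, whose word reads CCCAGCTT on the strand printed above. Rbm14 alone had a true E-box in its hit, so the share was 14.3%, against 53.9% of the 551 protein-coding promoter peaks with the motif. The exact interval for 1 of 7 is 0.361 to 57.9%, which includes 53.9%, so no difference can be read from these few peaks. Among the 9 peaks farther away, 8 had CANNTG in the hit (88.9%), against 81.2% of such peaks, and Rbm15 did not.

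A direct search of the sequence on both strands, which does not depend on the deposited hits, was made for the E-box and its GC-core form. CAGCTG was found in 0 of the 29 member promoter peaks (interval up to 11.9%), against 13.7% of protein-coding promoter peaks. In 200 bp around each peak center it was again found in 0 of 29, against 24.2%. Both shares of all promoter peaks lay above the interval of the members. Any CANNTG was found in the 51 bp of 3 of the 29, Rbm14, Dhx35 and Rbm39, or 10.3% (2.19 to 27.4%), against 26.1%, and in 200 bp in 34.5% (17.9 to 54.3%) against 57.1%. Farther than 1 kb from the TSS, CAGCTG was present in 7 of 11 member peaks (63.6%, 30.8 to 89.1%) against 45.4%, namely those of Prpf19, Sf3a3, Sf3b6, Prpf4b, Rbm19, Ddx25 and Dhx37. All 7 member peaks with this E-box were therefore away from the promoter, and at Sf3b6 and Sf3a3 the upstream peak held it and the promoter peak of the same gene did not.

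The pentamer CCAAT, which the ubiquitous factor NF-Y recognises, was counted after the deposited hits had been seen. It was found on either strand in 11 of the 29 member promoter peaks (37.9%, 20.7 to 57.7%), against 20.3% of protein-coding promoter peaks, and in 200 bp in 69.0% (49.2 to 84.7%) against 43.9%. The 11 were the peaks of Dhx35, Rbm14, Ddx50, Hnrnpa1, Rbm5, Prpf38b, Rbm6, Hnrnpul2, Srsf3, Ddx23 and Rbm25. In Rbm14 it is read as ATTGG within the capitals printed above, and in Prpf38b as attgg at the start of the sequence. A match describes the letters and does not show that NF-Y was bound. The GC content did not separate the groups, with a median of 0.627 in member promoter peaks and 0.647 in all.

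**Figure D4:**
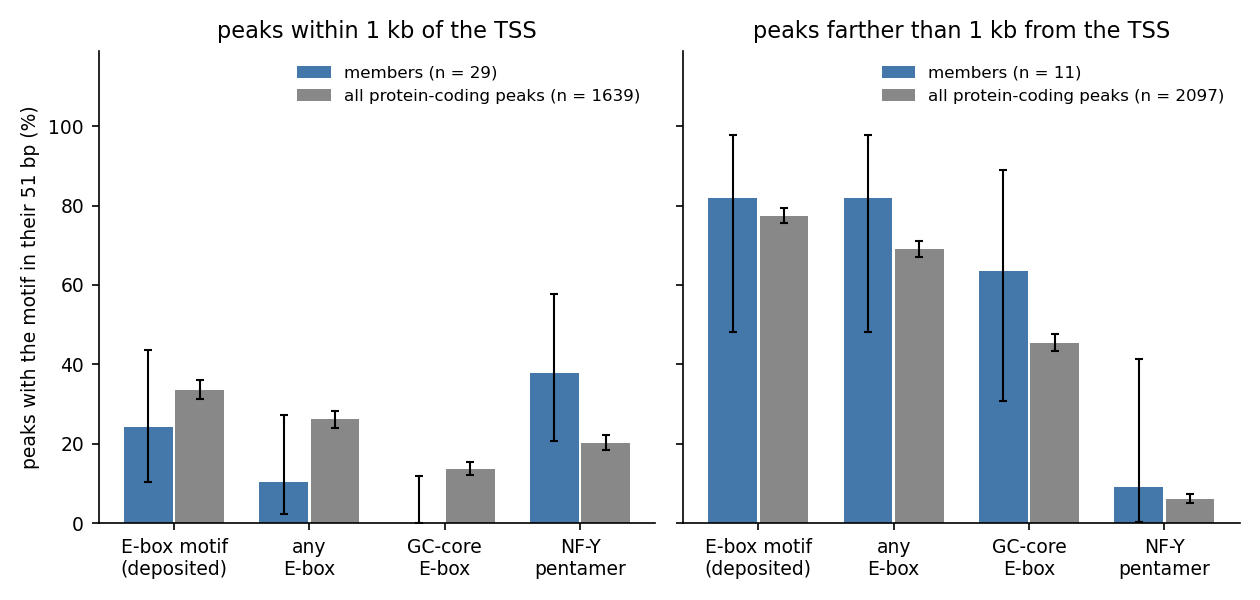
Share of Olig2 peaks with each motif (vertical axis, %), for member peaks (blue) and all protein-coding peaks (grey), within 1 kb of the TSS (left) and farther away (right), with exact 95% intervals. The deposited E-box motif is followed by searches of the 51 bp for any E-box (CANNTG), the GC-core E-box (CAGCTG) and the NF-Y pentamer (CCAAT). The GC-core E-box is at 0 of 29 in member promoter peaks and at 63.6% in member peaks farther away.

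Other deposited motifs occurred in a few promoter peaks each. The motif with the most frequent word GCCAATCA, which holds CCAAT, was hit in 7 of 29 member promoter peaks (24.1%, 10.3 to 43.5%) against 21.7%, of which 4 were Rbm, 2 Ddx and 1 Hnrnp. The motif of CAATATGG was hit in 4 (13.8%, 3.89 to 31.7%) against 6.04%, at Hnrnpf, Hnrnpa1, Sf3b6 and Dhx35. The motif of GCACGCGC was hit in 4 (13.8%, 3.89 to 31.7%) against 5.86%, at Ddx41, Ddx39b, Hnrnpa0 and Rbm12b2. For both of these motifs the share of all promoter peaks fell inside the interval of the members. The motif of ACTTCCGCTTCC, which resembles sites of ETS factors, was hit in 2 (6.90%, 0.846 to 22.8%) against 12.0%, and both were promoter peaks of the Sf3 family. Dhx36 held the one hit of the motif with the most frequent word CTCGTGACGTCA (3.45%) against 2.32%. The remaining motifs had at most 2 hits each among the members.

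Between helicases and the other families, the deposited E-box motif was compared in promoter peaks. It was hit in 1 of 11 promoter peaks of Ddx and Dhx genes (9.09%, 0.230 to 41.3%), the peak of Ddx10, and in 6 of 18 promoter peaks of the other families (33.3%, 13.3 to 59.0%), and these intervals overlap. The share of promoter peaks was 78.6% for helicases and 69.2% for the other families. The median scores were 11.9 and 13.0. CCAAT was present in 3 of 11 and in 8 of 18 promoter peaks.

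A promoter peak may belong to a second gene that starts nearby. Only TSSs of curated RefSeq transcripts were counted for this. Another gene had its TSS within 1 kb of 6 of the 29 member promoter peaks (20.7%, 7.99 to 39.7%), against 20.4% of protein-coding promoter peaks. For 4 of them this was a protein-coding gene on the opposite strand: Cbx5 beside Hnrnpa1 (538 bp away), Cbx3 beside Hnrnpa2b1 (646 bp), Ttc9c beside Hnrnpul2 (195 bp) and Rita1 beside Ddx54 (367 bp). Cbx5 and Cbx3 encode heterochromatin protein 1 paralogs. The other two were a long non-coding RNA beside Ddx59 (272 bp) and Gm21992, which starts with Rbm14 on the same strand. Outside this count, the promoter peaks of Hnrnpf and Rbm12b2 lay inside protein-coding genes of the opposite strand, 4933440N22Rik and Tmem67. Those of Ddx41 and Srsf3 lay inside long non-coding RNA genes of the opposite strand. So a peak without a counted second TSS is not thereby assigned to 1 gene.

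Splicing genes that the name rule does not take were counted for comparison. Of 133 such genes on a list of spliceosome components and regulators, 30 were bound (22.6%, 15.8 to 30.6%), against 14.1% of all protein-coding genes, and 24 were bound within 1 kb of the TSS (18.0%, 11.9 to 25.6%), against 7.32%. Their 33 peaks had 75.8% within 1 kb, a median score of 11.6 and the E-box motif in 36.4%, against 43.9%, 11.6 and 58.2% for all protein-coding peaks. The motif share of these 33 was not split by position, and among all protein-coding promoter peaks it was 33.6%. The highest of the 33 peaks was at Ptbp1, the polypyrimidine tract binding protein, with a score of 64.1 (rank 74) at 165 bp upstream, above every member of the families. Srrm1, an SR-related coactivator, scored 36.0, and Lsm4, Ctnnbl1, Cdc5l and Isy1 scored between 20.1 and 24.1. Of 20 helicases outside the rule, 1 was bound (5.00%, 0.127 to 24.9%), an interval that includes 14.1%. This was Eif4a1, the helicase of translation initiation, with a highest score of 9.24. These lists share 3 genes, none of them bound.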

How the data were processed

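Chromatin of whole spinal cord, from several cords aggregated for each IP, gave the list of Olig2 peaks analysed here; the Input Control entered through the authors' peak calling. The authors aligned reads to mm10 (GRCm38) with BWA, called peaks with MACS2 on pooled reads and annotated them with HOMER. The peak score was deposited by the authors with no scale named, so scores were ranked within the list and not read as enrichment; the read depth behind a peak is unknown. The authors deposited GC content as a fraction and the distance to the TSS in bp. Of the peaks, 4215 of 4215 had the deposited GC fraction in GRCm38.p6, and 7177 of 7177 motif words were at their place. In the file the headings of gene type and gene description are exchanged, and the values were read by content. A second sheet of 5 peaks, all of them also in the list, was left out.

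Shares carry exact Clopper-Pearson intervals at 95%, and medians exact order-statistic intervals, from scripts tested on simulated data. No p-value was computed. Families and lists were chosen with earlier results of these data known. Every bound gene of the families was named; unbound genes were named where a family had at most 12 of them, apart from the Prpf family, since 1 item is not reported here; from the splicing genes outside the rule the 6 highest bound genes were named, and from the other helicases the 1 bound gene. The sequences printed first are of the highest-scoring peak of each family among those upstream of the TSS in a promoter or in an intron, and 3 more were added because they hold CAGCTG. Alternatives changed the score minimum, the name rule, the TSS window, the counting of peaks and the motif, and left out each family. The analysis used python 3.11.15, numpy 2.4.6, pandas 2.3.3, scipy 1.17.1, pysam 0.24.0 and matplotlib 3.10.9.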

Additional observations from a re-analysis of the deposited data

How the results depend on the processing

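Of 113 alternative settings, 96 gave a value inside the 95% interval of the reported one. Many settings reused most of the same peaks, and windows of 500 bp and 2 kb returned the same member promoter peaks. Several intervals are also wide, so this count does not measure how robust the values are. Requiring a score of at least 10 or 20 lowered the share of family genes bound to 16.6% and 4.46%, against 8.89% and 3.84% of all protein-coding genes. The share bound within 1 kb of the TSS was then 10.8% and 3.18%, against 4.00% and 1.43%. Peaks farther than 10 kb alone left 4.46% of family genes bound, against 5.53% of all protein-coding genes. With a score of at least 20, 100% of the 5 member promoter peaks lay upstream. Searching CAGCTG in place of the deposited E-box motif gave 17.5% of member peaks in 51 bp and in 200 bp, and 0% of member promoter peaks in both windows. Without predicted genes, 15.0% of all protein-coding genes were bound. Leaving out each family in turn gave bound shares between 22.8% and 26.2%, promoter E-box motif shares between 18.2% and 28.6% and median scores between 12.3 and 12.9. The search for CCAAT, the other TSS windows and score minimums for CAGCTG, and the removal of Hnrnpa1l2-ps2, which is annotated as protein-coding despite its name, were added after the data were seen. No paired analysis was possible because the list comes from pooled reads and has no replicates. The unknown read depth behind each peak, small families and assignment by the nearest gene limit every share.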

Other observations

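Bound genes were also counted by spliceosome subcomplex, over lists put together after the bound genes were known, so the counts are descriptions. Of 16 genes for the Prp19 complex and proteins that join the spliceosome with it, 7 were bound (43.8%, exact 95% interval 19.8 to 70.1%): Prpf19, Cdc5l, Plrg1, Ctnnbl1, Isy1, Syf2 and Xab2, with 5 of them within 1 kb of the TSS. Of 14 genes for proteins of the U4/U6.U5 tri-snRNP and of U5, 1 was bound (7.14%, 0.181 to 33.9%), Ddx23. Of 10 SF3a and SF3b subunits, 2 were bound (2.52 to 55.6%), and of 15 Sm and Lsm proteins, 2 (13.3%), Lsm3 and Lsm4. Of the 8 helicases that drive the conserved steps of splicing, 2 were bound, Ddx23 and Ddx39b, both with low promoter peaks (3.69 and 6.65). The intervals of these lists overlap, and the share over all protein-coding genes was 14.1%.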
